A study of Mus musculus with 18 samples.

Results

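A set of 10 calcium- and sugar-binding protein genes of effector and memory T cells was followed through stimulation and Ox40 triggering: the S100 genes S100a4, S100a6, S100a10 and S100a11, the annexin genes Anxa1, Anxa2, Anxa5 and Anxa6, and the galectin genes Lgals1 and Lgals3. The members were taken by symbol, and all 10 of 10 were found among the 36528 entries of the deposited table. All 10 also passed the filter for testing, which asked for 3 or more of the 18 libraries to reach an nRPKM of 1 and left 13075 genes. Here nRPKM is the authors' read number per gene length and library size after a further scaling, so levels of different genes can be set side by side per length.

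The study measured RNA in splenic CD4 T cells of the NZB/W F1 hybrid, a cross of NZB and NZW mice that develops lupus-like disease, and asked what Ox40 signalling adds to T cell receptor signalling. All groups shared the same cells and medium: female mice aged 21 to 27 weeks with proteinuria of 30 to 100 mg/dL, CD4 T cells obtained with an isolation kit, 250000 cells a well, and IL-2 at 10 U/mL. Cells were cultured for 48 hours with an anti-Ox40 antibody of class IgG1 or an isotype control IgG1 (control Ig), each at 25 µg/mL, and with anti-CD3/CD28 beads in 3 amounts per cell: 0 (called no beads here), 0.1 (low beads) and 1 (high beads). The 6 groups were anti-Ox40 and control Ig without beads, anti-Ox40 and control Ig at low beads, and anti-Ox40 and control Ig at high beads, with 3 libraries each. The labels do not say whether the 3 came from separate mice or cultures, so p-values measure only the spread between libraries, which may be technical.

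S100 proteins are small calcium sensors that change shape on binding calcium and then grip partner proteins, among them annexins, which bind acidic phospholipids of membranes when calcium rises. Galectins bind galactose-containing sugars on surface glycoproteins and, outside the cell, cross-link receptors of T cells. Several of these genes are known to be higher in effector and memory T cells than in naive ones, and Ox40, encoded by Tnfrsf4, is a TNF receptor family member that co-stimulates activated T cells.

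The promoters of the member with the strongest rise at high against no beads (Anxa2), of the one with the strongest fall there (S100a4) and of S100a11, the member with most AP-1 type letters, are shown from RefSeq, build GRCm38.p6, from 250 bases before the start site through the first 50 bases of the gene. The windows are chr9:69453433-69453732 on the plus strand for Anxa2, chr3:90603520-90603819 on the plus strand for S100a4, and chr3:93520246-93520545 on the plus strand for S100a11. Capitals mark the AP-1 type letters TGANTCA and the TATA type letters TATAAA.
Anxa2: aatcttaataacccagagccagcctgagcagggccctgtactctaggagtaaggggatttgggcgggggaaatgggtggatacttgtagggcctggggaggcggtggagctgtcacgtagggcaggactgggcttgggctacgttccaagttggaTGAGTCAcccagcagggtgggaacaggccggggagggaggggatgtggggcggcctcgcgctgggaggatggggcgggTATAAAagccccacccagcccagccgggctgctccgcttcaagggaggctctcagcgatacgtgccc
S100a4: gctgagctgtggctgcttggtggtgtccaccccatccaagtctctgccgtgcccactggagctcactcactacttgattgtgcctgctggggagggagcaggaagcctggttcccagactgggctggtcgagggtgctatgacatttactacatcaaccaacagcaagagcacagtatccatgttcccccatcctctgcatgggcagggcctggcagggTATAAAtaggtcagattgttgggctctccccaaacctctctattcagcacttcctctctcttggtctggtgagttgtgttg
S100a11: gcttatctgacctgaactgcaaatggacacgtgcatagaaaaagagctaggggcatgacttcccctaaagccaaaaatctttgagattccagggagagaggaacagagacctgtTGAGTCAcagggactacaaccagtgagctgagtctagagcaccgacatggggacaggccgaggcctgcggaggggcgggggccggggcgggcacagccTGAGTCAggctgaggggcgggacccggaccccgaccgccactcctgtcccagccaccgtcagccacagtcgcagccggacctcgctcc

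A window was found for 7 of the 10 members, and not for S100a10, Anxa6 and Lgals1. Searched on both strands and counted so that the last base before the start site is -1, TGANTCA began at -95 in Anxa2 and at -136 and -38 in S100a11, and in no other of the 7 windows. Among all 32851 promoter windows of the same length, 7.8% held it. TATAAA began at -17 in Anxa2, at -31 in S100a4 and at -32 in Anxa1, against 13.6% of all windows. The NFAT type letters GGAAAA occurred in S100a6, Anxa1, Anxa5 and Lgals3, against 23.4% of all. The STAT type letters TTCNNNGAA were in none of the 7, against 8.3% of all. An NF-kB type motif (3 G, any 5 bases, 2 C) occurred in all 7 windows, against 50.8% of all, and its match at -197 in Anxa1 overlapped the NFAT type match at -196. No TGANTCA or TATAAA match overlapped one of another kind. These are letters in a window and do not show a bound site.

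The 4 S100 members lie on chromosome 3, where S100a4 and S100a6 share a stretch of 10.6 kb and S100a11 and S100a10 another of 44.1 kb, with 2.91 Mb between the stretches (GRCm38). Anxa5 lies elsewhere on chromosome 3, and Anxa1, Anxa2, Anxa6, Lgals1 and Lgals3 lie on chromosomes 19, 9, 11, 15 and 14. Exons of S100a4 overlap those of Gm42674 on the same strand, and exons of Anxa2 overlap those of the antisense gene Gm16144. The library kit does not mark strand, so reads of Anxa2 and of its antisense partner cannot be told apart, and whether members shared reads with copies elsewhere was not tested.

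An nRPKM of 1 over 1 kb stood for 26.8 to 46.0 reads, depending on the library, as worked out from the steps between low values. Within groups the libraries correlated at 0.989 to 0.995 across genes. The CD4 T cell markers were high throughout, with a sum of 8 genes of 1369 to 1448 nRPKM at high beads with anti-Ox40, against 1621 to 1726 with control Ig, and of 1695 to 1930 in the other 4 groups. Markers of other cells were also present: the summed level of 11 myeloid markers was 362 to 476 nRPKM with anti-Ox40 and 378 to 413 with control Ig without beads, 112 to 138 with anti-Ox40 and 123 to 135 with control Ig at low beads, and 38.4 to 44.6 with anti-Ox40 and 44.4 to 53.9 with control Ig at high beads. B cell markers were highest in replicate 3 of every group. Lung epithelial markers were listed in cultures with beads, with sums of 40.1 to 223 nRPKM at low beads with anti-Ox40 against 0.014 to 26.8 with control Ig, and of 29.6 to 54.8 with anti-Ox40 against 31.6 to 123 with control Ig at high beads. In bulk RNA, fewer cells of a type and less RNA per cell cannot be told apart.

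Stimulation divided the genes. In control Ig cultures at high beads, Anxa2, Lgals1 and Anxa6 were higher than without beads, and S100a4, Lgals3, Anxa1, S100a6 and S100a10 were lower, so 3 members rose and 5 fell (limma adjusted p under 0.05). Of all genes tested, 82.3% were called in that comparison, 43.4% higher and 38.9% lower. The median change of the 10 members was -0.22 on the log2(nRPKM + 1) scale, and that of all genes 0.04. All log2 changes given here are on this scale, which understates the change of genes with low values. At low beads against no beads 3 rose and 5 fell, where 62.3% of all genes were called (32.6% higher, 29.8% lower). For high against low beads 3 rose and 1 fell, where 72.5% were called (40.0% higher, 32.5% lower). With anti-Ox40, 3 rose and 6 fell at high against no beads, where 84.5% of all genes were called (45.2% higher, 39.3% lower). In the same cultures 4 rose and 4 fell at low against no beads (70.8% called, 37.1% higher, 33.7% lower), and 1 rose and 7 fell at high against low beads (71.5% called, 40.3% higher, 31.2% lower). Among 10 members such shares move by steps of 10%, and nothing particular to them is read from these counts. Comparisons with the same baseline share its 3 libraries.

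The antibody itself gave no call among the members without beads, 1 at the low dose and 7 at the high dose. Without beads, 0 of 10 members passed in limma, against 0.138% of all genes called. At low beads only Anxa5 passed, higher with anti-Ox40, where 9.59% of all genes were called, 6.15% higher and 3.44% lower. At high beads S100a4, S100a6, S100a10, S100a11, Anxa6, Lgals1 and Lgals3 were lower with anti-Ox40, where 26.0% of all genes were called, 14.4% higher and 11.6% lower. The median change of the 10 members was -0.34 there and that of all genes 0. For Anxa1 the libraries of the 2 antibodies overlapped there, and its estimate of -0.25 came to 0.01 in a fit without 1 library. With 2 libraries a group, the high bead count was 2 without the library of each group with most B cell transcripts, which was replicate 3 throughout, and 4 without the one with most myeloid transcripts. S100a10 and Lgals1 kept their calls in the first of these fits. In the other, S100a4, S100a6, S100a10 and Anxa6 did. Calls over all genes moved too, from 1387 to 3404 across the alternatives computed, against 3397 in the main fit. Nothing particular to the members is read from these lower counts.

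**Figure D1:**
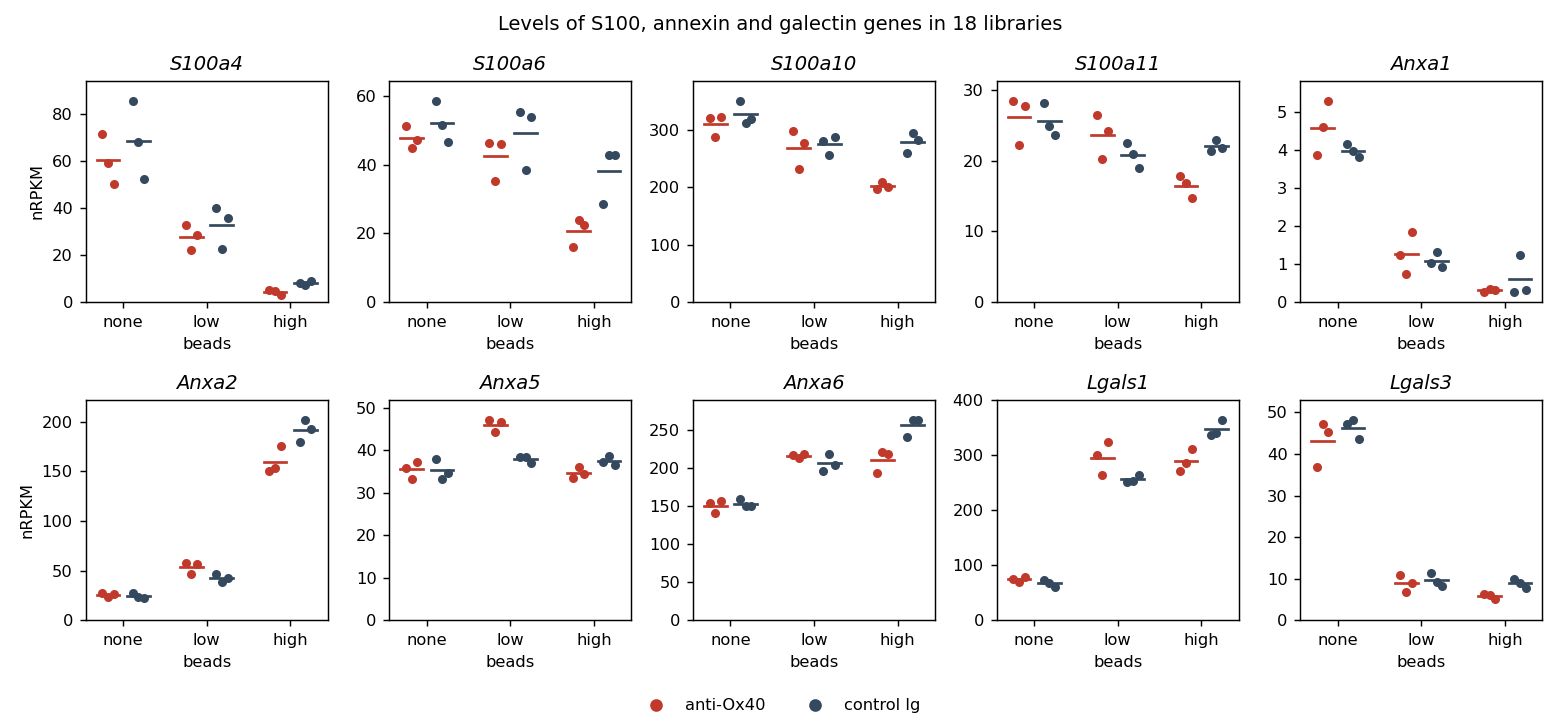
Level of each member (nRPKM, linear axes from 0 that differ between panels) by bead dose, with anti-Ox40 left of control Ig, points for the 18 libraries and lines for group means. Anxa2 and Lgals1 are higher with beads, S100a4, Anxa1 and Lgals3 are lower, and S100a10 is at 198 to 209 nRPKM at high beads with anti-Ox40, against 261 to 295 with control Ig.

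S100a4, a calcium sensor that binds the motor protein non-muscle myosin, had the strongest fall at high against no beads on the log2(nRPKM + 1) scale. That ranking depends on the scale: under anti-Ox40 the mean of S100a4 went from 60.4 to 4.28 nRPKM and that of Anxa1 from 4.58 to 0.302. At low beads Lgals3 and Anxa1 fell further. Under anti-Ox40, S100a4 was at 71.5, 59.3 and 50.5 nRPKM without beads, 33.0, 22.1 and 28.3 at low beads, and 5.14, 4.63 and 3.07 at high beads. Under control Ig, S100a4 was at 85.7, 68.2 and 52.6 nRPKM without beads, 39.9, 22.6 and 36.0 at low beads, and 8.01, 7.15 and 8.88 at high beads. The 3 doses did not overlap within either antibody, and the antibodies overlapped without beads and at low beads but not at high beads. In control Ig the change from no to high beads was -2.93 (SE 0.22, limma adjusted p 3.24e-09), and under anti-Ox40 it was -3.55. At high beads S100a4 averaged 4.28 ± 1.08 nRPKM with anti-Ox40 and 8.02 ± 0.865 with control Ig (SD, n = 3 each), a log2 change of -0.79 (SE 0.22, limma adjusted p 0.0156). That call was lost without replicate 3 of anti-Ox40 at high beads (adjusted p 0.0724) or without replicate 3 of control Ig at high beads (adjusted p 0.062).

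S100a6, or calcyclin, which binds annexins and the adaptor encoded by Cacybp, did not pass the test between no and low beads under either antibody (-0.18 with anti-Ox40, -0.09 with control Ig). With anti-Ox40 it had 51.4, 45.0 and 47.3 nRPKM without beads, 46.3, 35.2 and 46.0 at low beads, and 16.1, 23.9 and 22.5 at high beads. With control Ig it had 58.6, 51.7 and 46.6 nRPKM without beads, 55.5, 38.6 and 53.9 at low beads, and 28.6, 42.7 and 43.0 at high beads. The high bead libraries with anti-Ox40 lay below every other library of S100a6. The log2 change of anti-Ox40 against control Ig at high beads was -0.84 (SE 0.18, limma adjusted p 0.00287), from 20.8 ± 4.18 nRPKM with anti-Ox40 and 38.1 ± 8.21 with control Ig (SD, n = 3 each). That call was lost without the library of each group with most B cell transcripts (limma adjusted p 0.0663). From no to high beads S100a6 changed by -1.18 under anti-Ox40 (limma adjusted p 1.17e-05) and by -0.46 in control Ig (limma adjusted p 0.0243). The control Ig call was lost without replicate 1 of control Ig without beads (adjusted p 0.0924) or replicate 1 at high beads (adjusted p 0.154). From low to high beads in control Ig the S100a6 change of -0.37 missed the threshold (limma adjusted p 0.0727), and it passed without control Ig replicate 2 at low beads (0.0158) or replicate 2 (0.0499) or 3 (0.0482) at high beads.

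S100a10, also called p11, which joins annexin A2 in a complex at the membrane and does not need calcium to do so, was the most abundant member without beads. In anti-Ox40 cultures its level was 322, 287 and 323 nRPKM without beads, 298, 232 and 278 at low beads, and 198, 209 and 201 at high beads. In control Ig cultures its level was 351, 313 and 320 nRPKM without beads, 281, 256 and 288 at low beads, and 261, 295 and 282 at high beads. At high beads the 3 anti-Ox40 libraries were the lowest of all 18. The log2 change of anti-Ox40 against control Ig there was -0.46 (SE 0.08, limma adjusted p 0.000951), with 203 ± 5.88 nRPKM with anti-Ox40 against 279 ± 17.4 with control Ig (SD, n = 3 each). This call held in all 15 alternatives computed. Beads changed S100a10 by -0.25 at low (limma adjusted p 0.0143) and by -0.23 at high dose (0.0168) in control Ig, and by -0.21 (0.031) and -0.61 (3.37e-06) under anti-Ox40. The low bead call in control Ig was lost without replicate 1 of no beads (0.0682) or replicate 2 of low beads (0.0629), and the high bead call without replicate 1 of no beads (0.0792) or of high beads (0.078). The low bead call of S100a10 under anti-Ox40 was lost without replicate 1 (0.0954) or 3 (0.0944) of no beads or replicate 2 of low beads (0.206).

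S100a11, which binds annexin A1, ran within a narrow range. Under anti-Ox40, S100a11 was at 28.5, 22.3 and 27.8 nRPKM without beads, 26.5, 20.2 and 24.2 at low beads, and 17.8, 16.8 and 14.7 at high beads. Under control Ig, S100a11 was at 28.3, 24.9 and 23.7 nRPKM without beads, 22.5, 20.9 and 19.0 at low beads, and 21.4, 23.0 and 21.9 at high beads. Again only the anti-Ox40 libraries at high beads lay below all others. Against control Ig they differed by -0.41 (SE 0.11, limma adjusted p 0.0101), with 16.5 ± 1.58 nRPKM with anti-Ox40 and 22.1 ± 0.828 with control Ig (SD, n = 3 each). That call was lost without the library of each group with most B cell, or most myeloid, transcripts (limma adjusted p up to 0.139). From no to high beads S100a11 changed by -0.63 under anti-Ox40 (limma adjusted p 3.5e-05) and by -0.20 in control Ig, which missed the threshold (limma adjusted p 0.089). The fall of S100a11 from no to low beads in control Ig (-0.29, limma adjusted p 0.0273) was lost without replicate 1 of no beads (0.121) or replicate 2 (0.0524) or 3 (0.11) of low beads. Under anti-Ox40 the same step was -0.14 (0.241), and it passed without replicate 2 of no beads (0.0468).

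Anxa1, a glucocorticoid-induced annexin that is abundant in myeloid cells and acts through formyl peptide receptors, was the lowest member in every group. With anti-Ox40 it had 3.86, 4.61 and 5.29 nRPKM without beads, 1.22, 0.724 and 1.84 at low beads, and 0.262, 0.331 and 0.312 at high beads. With control Ig it had 4.15, 3.96 and 3.81 nRPKM without beads, 1.03, 1.31 and 0.906 at low beads, and 0.269, 1.23 and 0.320 at high beads. At high beads these values stood for 9.33 to 12.2 reads per kb of transcript, except 41.7 in control Ig replicate 2. The doses were apart under anti-Ox40, but in control Ig replicate 2 at high beads reached the low bead range. That library also had the highest Cd14 of the group, 1.00 nRPKM, and the highest myeloid sum, 53.9 nRPKM. The change from no to high beads was -2.09 under anti-Ox40 (limma adjusted p 2.9e-08) and -1.68 in control Ig (4.83e-07). From low to high beads Anxa1 changed by -0.77 under anti-Ox40 (0.00198) and by -0.42 in control Ig (0.0578), and by -0.68 in control Ig without that replicate 2 (0.0014). No antibody effect on Anxa1 passed the test, with -0.25 at high beads (limma adjusted p 0.367). Without single libraries that estimate ran from -0.4 to 0.01, so no direction is read from it.

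Anxa2, the annexin that pairs with S100a10 and serves as a surface anchor of plasminogen activation, had the largest rise among the members at high against no beads, while at low beads Lgals1 rose further. In anti-Ox40 cultures its level was 27.5, 23.3 and 26.4 nRPKM without beads, 57.3, 46.3 and 57.3 at low beads, and 151, 153 and 175 at high beads. In control Ig cultures its level was 28.0, 23.4 and 22.8 nRPKM without beads, 46.7, 38.7 and 42.4 at low beads, and 180, 202 and 192 at high beads. The doses did not overlap within either antibody, and at high beads the anti-Ox40 libraries lay below all control Ig libraries. From no to high beads Anxa2 changed by 2.59 under anti-Ox40 (limma adjusted p 6.39e-13) and by 2.91 in control Ig (SE 0.10, 1.95e-13), a fold of 7.5 in control Ig. Anti-Ox40 against control Ig gave 0.32 at low beads (limma adjusted p 0.0522) and -0.26 at high beads (0.0664), both short of the threshold. The Anxa2 value passed at low beads without anti-Ox40 replicate 2 (0.0436) and at high beads without anti-Ox40 replicate 3 (0.0396).

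Anxa5, which binds phosphatidylserine and is used as a reagent for dying cells, stayed between 33.2 and 47.2 nRPKM in all 18 libraries. Under anti-Ox40, Anxa5 was at 35.8, 33.3 and 37.4 nRPKM without beads, 47.2, 44.3 and 46.6 at low beads, and 33.4, 36.1 and 34.5 at high beads. Under control Ig, Anxa5 was at 38.0, 33.2 and 34.7 nRPKM without beads, 38.4, 38.3 and 37.1 at low beads, and 37.3, 38.6 and 36.5 at high beads. The 3 anti-Ox40 libraries at low beads were the highest of all 18, with no overlap. Anti-Ox40 against control Ig at low beads gave 0.27 (SE 0.05, limma adjusted p 0.00872), from 46.0 ± 1.56 nRPKM with anti-Ox40 and 38.0 ± 0.721 with control Ig (SD, n = 3 each). The call was lost without replicate 3 of control Ig at low beads (0.0516) and with only those 2 groups in the fit (0.0812). Under anti-Ox40 Anxa5 changed by 0.37 from no to low beads (limma adjusted p 9.93e-06) and by -0.40 from low to high beads (3.92e-06). In control Ig neither dose differed from no beads past the threshold (0.10 at low, limma adjusted p 0.0899, and 0.09 at high beads, 0.132), and both passed without control Ig replicate 1 of no beads (0.0152 and 0.0199). At high beads Anxa5 did not pass between the antibodies (-0.11, limma adjusted p 0.13), although their libraries did not overlap.

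Anxa6, a larger annexin that organizes membrane and cholesterol traffic, was higher with beads. With anti-Ox40 it had 154, 141 and 157 nRPKM without beads, 217, 213 and 218 at low beads, and 193, 221 and 218 at high beads. With control Ig it had 160, 150 and 150 nRPKM without beads, 196, 218 and 204 at low beads, and 241, 263 and 263 at high beads. Under anti-Ox40 the low and high dose overlapped, whereas in control Ig every high bead library was above every low bead one. The step from low to high beads was -0.04 under anti-Ox40 (limma adjusted p 0.573) and 0.31 in control Ig (0.000238). Under quantile normalization both were lower, at -0.34 (3.34e-05) with anti-Ox40 and 0.03 (0.665) in control Ig. From no to high beads Anxa6 changed by 0.48 under anti-Ox40 (1.36e-06), which came to 0.00 (0.942) under quantile normalization, and by 0.74 in control Ig (8.25e-09). At high beads it was 211 ± 15.3 nRPKM with anti-Ox40 and 256 ± 13 with control Ig (SD, n = 3 each), a change of -0.28 (SE 0.06, limma adjusted p 0.003). That call was lost without the library of each group with most B cell transcripts (limma adjusted p 0.0675).

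Lgals1, which encodes galectin-1, a dimeric lectin known to limit activated T cells, had most of its change at the lower dose. In anti-Ox40 cultures its level was 74.9, 69.5 and 78.5 nRPKM without beads, 299.5, 264 and 323 at low beads, and 272, 286 and 311 at high beads. In control Ig cultures its level was 73.1, 68.3 and 60.2 nRPKM without beads, 252, 253 and 263 at low beads, and 336, 340 and 364 at high beads. Anti-Ox40 libraries were above all control Ig libraries at low beads and below all of them at high beads. From no to low beads Lgals1 changed by 1.97 under anti-Ox40 (limma adjusted p 4.31e-12) and by 1.92 in control Ig (6.78e-12). From low to high beads it changed by -0.03 under anti-Ox40 (0.775) and by 0.44 in control Ig (0.000131). Anti-Ox40 against control Ig gave 0.20 at low beads (SE 0.08, limma adjusted p 0.108), short of the threshold, and -0.26 at high beads (SE 0.08, 0.0237). The high bead call was lost without anti-Ox40 replicate 1 (0.112) or 2 (0.0626) or control Ig replicate 3 (0.0975) of that dose.

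Lgals3, which encodes galectin-3, a lectin abundant in macrophages that binds branched N-glycans, fell mostly at the lower dose. Under anti-Ox40, Lgals3 was at 36.9, 47.2 and 45.2 nRPKM without beads, 10.9, 6.79 and 8.93 at low beads, and 6.30, 6.14 and 5.19 at high beads. Under control Ig, Lgals3 was at 47.2, 48.2 and 43.6 nRPKM without beads, 11.5, 9.12 and 8.28 at low beads, and 9.84, 8.91 and 7.85 at high beads. The no bead libraries were far above all with beads, and at high beads the antibodies did not overlap. From no to high beads Lgals3 changed by -2.68 under anti-Ox40 (limma adjusted p 2.9e-11) and by -2.27 in control Ig (2.86e-10). Between low and high beads it changed by -0.50 under anti-Ox40 (0.00464) and by -0.10 in control Ig (0.53). Anti-Ox40 against control Ig at high beads gave -0.52 (SE 0.14, limma adjusted p 0.0129), with 5.87 ± 0.6 nRPKM with anti-Ox40 and 8.86 ± 0.999 with control Ig (SD, n = 3 each). The call was lost without anti-Ox40 replicate 3 of high beads (0.0527).

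**Figure D2:**
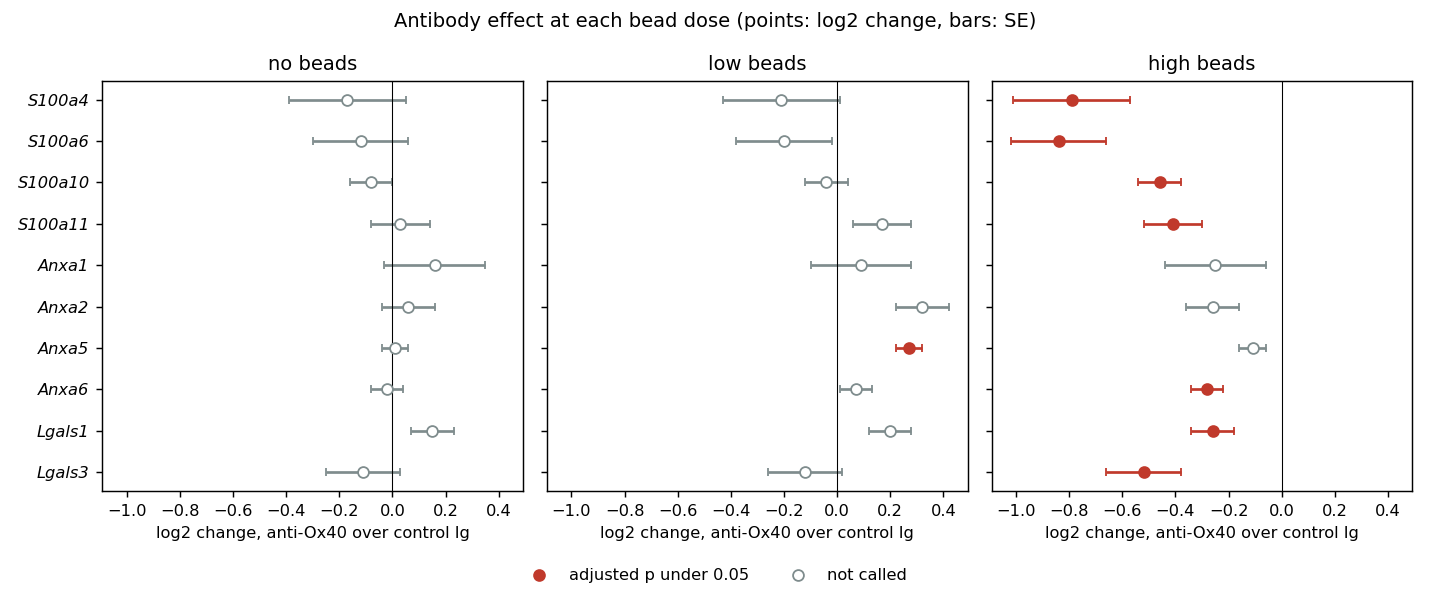
Change of each member with anti-Ox40 against control Ig (log2(nRPKM + 1) scale, linear axis) at the 3 bead doses, with the standard error of the limma fit. At high beads the values run from -0.84 for S100a6 to -0.11 for Anxa5, and that of Anxa1 (-0.25) came to 0.01 in a fit without 1 library.

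The 3 members with the strongest falls at high against no beads in control Ig were S100a4, Lgals3 and Anxa1, while Anxa2 (2.91), Lgals1 (2.35) and Anxa6 (0.74) rose. All 11 myeloid markers tested fell in that comparison (median change -2.20). Lyz2, the lysozyme of macrophages and neutrophils, averaged 3.97 ± 2.56 nRPKM at high beads and 213 ± 16.3 without beads (SD, n = 3 each), and Csf1r, the macrophage growth factor receptor, 0.0367 ± 0.0176 at high beads and 6.61 ± 0.364 without. All 4 neutrophil markers tested fell as well. Of 7 platelet markers 6 fell and 1 rose, and of 5 NK cell markers 4 fell and 1 rose. The NK marker sum was 54.7 to 64.3 nRPKM without beads and 58.0 to 93.3 at high beads. Of 8 B cell markers 1 fell and 0 rose, and of 2 dendritic cell markers 1 fell and 1 rose. All 6 lung epithelial markers tested rose. Of all genes, 38.9% were called lower and 43.4% higher there. The part of these cells in the falls of Anxa1, Lgals3 and S100a4 was not tested. Between the antibodies at high beads the myeloid sums were 38.4 to 44.6 nRPKM with anti-Ox40 and 44.4 to 53.9 with control Ig, and 1 of 11 markers, the protease gene Ctss, was called lower (-0.20). The platelet sums there were 22.3 to 31.0 nRPKM with anti-Ox40 and 43.0 to 52.0 with control Ig, with 2 of 7 markers called lower, and 5 of 8 CD4 T cell markers were called lower too. Of all genes, 26.0% were called between the antibodies at high beads, 14.4% higher and 11.6% lower. The part of these cells in the lower member levels was not tested.

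**Figure D3:**
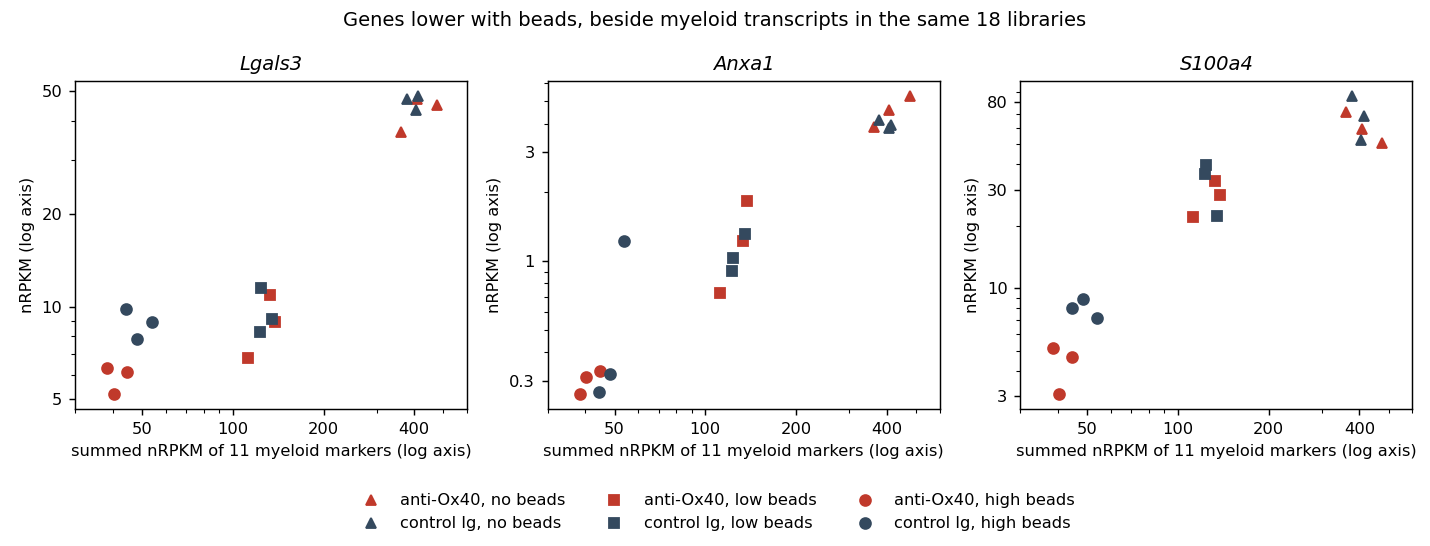
Level of Lgals3, Anxa1 and S100a4 (nRPKM, log axis) against the summed nRPKM of 11 myeloid markers (log axis) in the 18 libraries, by antibody (color) and bead dose (shape). The doses form separate clusters, and the libraries without beads, at 362 to 476 nRPKM of myeloid markers, are highest in all 3 genes.

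**Figure D4:**
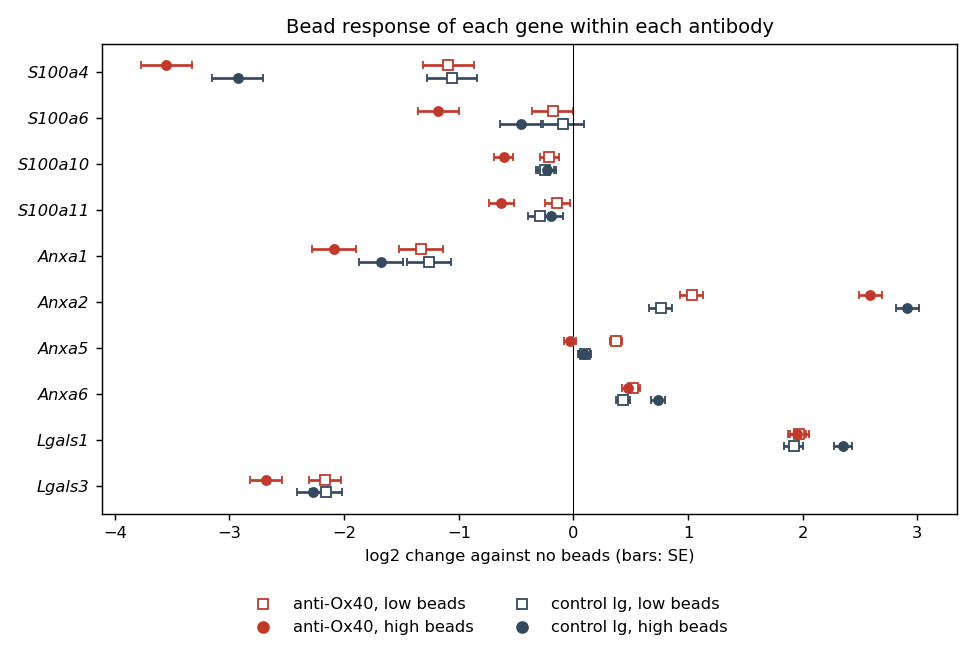
Change of each member at low beads (squares) and at high beads (circles) against no beads (log2(nRPKM + 1) scale) under anti-Ox40 and under control Ig, with the standard error of the limma fit. At high beads Anxa2 is at 2.59 with anti-Ox40 and 2.91 with control Ig, and S100a4 is at -3.55 with anti-Ox40 and -2.93 with control Ig.

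The order of the members by level per length changed with dose. Without beads S100a10 was highest and Anxa6 next under both antibodies, with libraries apart, and Anxa1 was lowest. Lgals1 and S100a4 overlapped behind them, as did S100a11 and Anxa2. At low beads Lgals1 and S100a10 overlapped at the top under both antibodies, with Anxa6 below them. At high beads Lgals1 was highest with its libraries apart from the next member, and S100a10 and Anxa6 overlapped. Anxa2 came next there. S100a4 lay below all members but Anxa1 with anti-Ox40, and overlapped Lgals3 with control Ig.

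The partner ratios followed. Anxa2 to S100a10 was 0.0828 ± 0.00241 with anti-Ox40 and 0.0753 ± 0.00433 with control Ig without beads, 0.199 ± 0.00702 with anti-Ox40 and 0.155 ± 0.01 with control Ig at low beads, and 0.789 ± 0.0731 with anti-Ox40 and 0.686 ± 0.00404 with control Ig at high beads (SD, n = 3 each). Annexin A2 transcripts thus stayed below those of its partner in every group, by less at each step. Lgals1 to Lgals3 was 1.74 ± 0.28 with anti-Ox40 and 1.45 ± 0.0907 with control Ig without beads, 34.2 ± 5.96 with anti-Ox40 and 27.2 ± 4.98 with control Ig at low beads, and 49.9 ± 8.88 with anti-Ox40 and 39.6 ± 6.23 with control Ig at high beads. These ratios are descriptions without a test. The 10 members summed to 945 ± 48.1 nRPKM at high beads with anti-Ox40 and 1188 ± 56.6 with control Ig.

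Whether the antibody effect itself changed with dose was tested in the same limma fit. From low to high beads the effect became lower for Anxa5 (-0.38, SE 0.07, limma adjusted p 0.0136), Anxa2 (-0.58, SE 0.14, 0.0364), Lgals1 (-0.46, SE 0.11, 0.0365), Anxa6 (-0.35, SE 0.08, 0.0374) and S100a11 (-0.58, SE 0.15, 0.0479), thus 5 of 10, where 3.17% of all genes were called, 1.47% higher and 1.70% lower. Between no and high beads it became lower for Lgals1 (-0.41, SE 0.11, 0.0309) and S100a10 (-0.38, SE 0.12, 0.0472), 2 of 10, where 11.1% were called, 6.40% higher and 4.70% lower. Between no and low beads 0 of 10 passed in limma, where 0.268% of all genes were called, 0.260% higher and 0.00765% lower. Anxa5 was at 0.26 there (limma adjusted p 0.141). The contrasts share groups and are not independent of each other.

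Most of these differences depended on single libraries, that of Anxa5 between low and high beads excepted. The Anxa2 call was lost without anti-Ox40 replicates 1 or 3 or control Ig replicate 3 of low beads, or anti-Ox40 replicates 1 or 2 or control Ig replicates 2 or 3 of high beads, with adjusted p of 0.0656 to 0.103. The Anxa6 call was lost without any anti-Ox40 replicate or control Ig replicates 1 or 3 of low beads, or anti-Ox40 replicate 1 or control Ig replicates 2 or 3 of high beads (0.0607 to 0.102). The low to high bead call of Lgals1 was lost without replicates 1 or 3 of either antibody at low beads, or anti-Ox40 replicates 1 or 2 or control Ig replicates 2 or 3 of high beads (0.0616 to 0.106). That of S100a11 was lost without replicates 1 or 3 of either antibody at low beads, or any anti-Ox40 replicate or control Ig replicates 2 or 3 of high beads (0.0586 to 0.115). Between no and high beads, Lgals1 was lost without anti-Ox40 replicates 1 or 3 or control Ig replicates 2 or 3 of no beads, or anti-Ox40 replicates 1 or 2 or control Ig replicates 2 or 3 of high beads (0.0525 to 0.09), and S100a10 without the same libraries or anti-Ox40 replicate 3 of high beads (0.0591 to 0.117). In the other direction, S100a6 (-0.91, 0.0207) passed between no and high beads without control Ig replicate 1 of high beads, S100a11 (0.0338) without anti-Ox40 replicate 2 of no beads, and Anxa6 without that library (0.043) or that control Ig replicate 1 (0.0346). Between low and high beads S100a10 passed without anti-Ox40 replicate 2 of low beads (0.0195) or control Ig replicate 1 of high beads (0.0414), and Anxa5 passed between no and low beads without control Ig replicate 2 of low beads (0.0323).

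Other genes of the 3 families were called in both directions. At high beads with anti-Ox40, 1 of 4 other S100 genes tested was lower and 0 higher, 2 of 5 other annexins were higher and 0 lower, and 1 of 5 other galectins was lower and 0 higher, where 26.0% of all genes were called (14.4% higher, 11.6% lower). Anxa4 was 10.7 ± 1.05 nRPKM with anti-Ox40 and 7.08 ± 1.44 with control Ig at high beads (SD, n = 3 each), a change of 0.55 (SE 0.13, limma adjusted p 0.00663). At low beads Anxa4 was 7.30 ± 1.22 nRPKM with anti-Ox40 and 4.39 ± 0.647 with control Ig, a change of 0.62 (0.0151), which was lost without anti-Ox40 replicate 1 (0.0508) or control Ig replicate 3 (0.0726) of that dose. Anxa3 was 2.66 ± 0.715 nRPKM with anti-Ox40 and 1.33 ± 0.439 with control Ig at high beads (0.65, 0.0251), a call lost without anti-Ox40 replicate 1 (0.124) or 2 (0.0688) or control Ig replicate 3 (0.127) of that dose. S100a13 was lower with anti-Ox40 at high beads (51.6 ± 7.62 nRPKM, against 67.2 ± 9.66 with control Ig, -0.38, 0.0232), and so was Lgals8 (8.71 ± 0.599 nRPKM, against 10.5 ± 0.969 with control Ig, -0.25, 0.013). The S100a13 call was lost without anti-Ox40 replicate 1 (0.138) or control Ig replicate 2 (0.107) or 3 (0.0955) of that dose, and the Lgals8 call without anti-Ox40 replicate 1 (0.0788) or control Ig replicate 3 (0.0775). At high against no beads in control Ig, 82.3% of all genes were called (43.4% higher, 38.9% lower). Of 4 other S100 genes 2 rose, S100a1 (1.34) and S100a13 (0.68), and 2 fell, among them the neutrophil gene S100a8 (-1.71). Of 5 other annexins Anxa9 (0.81) rose, and Anxa7 (-0.17) and Anxa3 (-0.47) fell. The Anxa7 call was lost without control Ig replicate 2 of high beads (limma adjusted p 0.0526), and the Anxa3 call held in 8 of 15 alternatives. Of 5 other galectins 2 rose, Lgals7 (1.81) and Lgals9 (0.55), and 3 fell, among them Lgals8 (-1.24).

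Genes that act with the members were read from lists. Of 8 tested counter-receptors of galectins, 5 were lower with anti-Ox40 at high beads and 0 higher (median -0.31), among them Ptprc, the CD45 phosphatase (-0.38, limma adjusted p 0.000566), Spn, which encodes CD43 (-0.32, 0.00129), and Cd7 (-1.21, 0.00223). Of 12 tested enzymes that build N-glycans, 2 were lower and 0 higher: B4galt1, a galactosyltransferase (-0.47, 7.08e-06), and St3gal6, a sialyltransferase (-0.71, 4.96e-05). Of 9 tested partners of S100 proteins and annexins, Cacybp, the calcyclin-binding protein gene, was higher (0.34, 0.00893), and Myh9, the non-muscle myosin heavy chain (-0.24, 0.00108), and Ahnak, a giant scaffold bound by S100a10 and annexin A2 (-0.62, 0.0462), were lower. The Cacybp call was lost without anti-Ox40 replicate 1 of high beads (0.0543), and the Ahnak call without any 1 of the 6 high bead libraries (0.0636 to 0.145). Of 16 effector and memory genes named often beside the members, 12 were lower and 0 higher (median -0.36), with Itgal, the LFA-1 integrin chain (-0.38, 0.000101), Lsp1, an actin binder (-0.64, 0.000267), and Ifngr1, an interferon gamma receptor chain (-0.45, 0.000309) first by p. Of 8 naive T cell genes, 3 were lower and 0 higher (median -0.14). Of all genes, 26.0% were called there, 14.4% higher and 11.6% lower, with a median of 0.

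At low beads with anti-Ox40, where 9.59% of all genes were called, 3 genes of these lists passed. Man2a2, a mannosidase of N-glycan trimming, was lower (-0.25, limma adjusted p 0.00545). Vim, the intermediate filament gene of migrating cells, was 845 ± 15.5 nRPKM with anti-Ox40 and 576 ± 22.9 with control Ig (0.55, 0.00368), and Tagln2, an actin-binding gene, was higher too (0.20, 0.0271). The Tagln2 call was lost without any anti-Ox40 replicate (0.0621 to 0.0746) or control Ig replicate 1 (0.102) or 3 (0.125) of low beads. No galectin counter-receptor (0 of 8), partner (0 of 9) or naive gene (0 of 8) passed at that dose. All 6 of 6 tested lung epithelial markers were called higher there, and their part in these results was not tested.

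At high against no beads in control Ig, where 82.3% of all genes were called, the same lists split. Among counter-receptors 4 rose and 3 fell of 8, with Lag3, an inhibitory receptor (3.91), and Lgals3bp, a galectin-binding glycoprotein gene (0.90), higher and Cd7 lower (-2.93). Among N-glycan enzymes 2 rose and 6 fell of 12, with Mgat1 higher (0.92) and Man2a2 (-1.45) and the branching enzyme gene Mgat5 (-1.23) lower. Partners split 4 to 5 of 9, with Cacybp (0.86) and Pdcd6 (0.45) higher and Myof (-1.18) lower. Effector and memory genes split 7 to 8 of 16, with Vim (2.98) and Tagln2 (1.27) higher and Ifngr1 (-1.62) lower. Naive genes fell in 5 and rose in 2 of 8.

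For each member the pair of genes with the most similar profile over the 18 libraries was taken by Pearson r of log2(nRPKM + 1), as a description. The libraries share the group structure, so they are not independent points. The highest values were those of Lgals1 with the cell cycle genes Cdkn3 (0.996) and E2f2 (0.994), and of Anxa2 with Plekha2 (0.995) and Trappc6a (0.994). Anxa6 followed Mboat1 (0.992) and Cotl1 (0.987), S100a4 followed Lax1 (0.991) and Nt5e (0.99), and Lgals3 followed Qrfp (0.99) and Stk25 (0.987). Anxa1 was closest to Lyz2 (0.988) and Trf (0.984). Lyz2 is a myeloid marker and averaged 222 nRPKM with anti-Ox40 and 213 with control Ig without beads, against 2.53 with anti-Ox40 and 3.97 with control Ig at high beads. The values were lower for S100a6 with Slc25a24 (0.954) and Pcyt1b (0.952), for S100a10 with Rab43 (0.949) and Nfatc1 (0.936), for S100a11 with Hopx (0.885) and Bloc1s1 (0.872), and for Anxa5 with Gpr55 (0.848) and Kynu (0.837).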

How the data were processed

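RNA sequencing libraries of cultured splenic CD4 T cells of NZB/W F1 females were compared, 18 in 6 groups of 3. The authors deposited 1 table of nRPKM values, RPKM (reads per gene length and library size) with a further normalization, whose method the sources used here do not give. The submitters' processing notes name GSNAP, without a version, and GRCm38 as the build. The table gives no read numbers, and low values of microRNA genes fell on whole multiples of 1 read in 100.0% of cases within 0.1 read, on the scale that includes the authors' factor. This gives the depth and counting error only.

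A single limma model (version 3.58.1 in R 4.3.3) with a mean per group was fitted to log2(nRPKM + 1) of the 13075 genes that reached an nRPKM of 1 in 3 or more libraries (eBayes with trend, 12 residual degrees of freedom). Calls were made at adjusted p under 0.05 (Benjamini-Hochberg, over all genes tested, 2-sided). The model was tested on simulated data. Alternatives were other pseudocounts, no filter, other scalings, no trend, only the groups compared, and fits without single libraries or without the library of each group highest in B cell or myeloid markers.

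The members, the gene lists and the alternatives were chosen with earlier results of these data known. Named genes are the 10 members in every comparison, up to 3 genes of each list with the smallest adjusted p, and, for likeness, the 2 genes with the highest r to each member. Of 36528 entries, 6 had no symbol and 27 a symbol turned into a date. Promoter sequences are from RefSeq (GRCm38.p6). Python 3.11.15, pandas 2.3.3, numpy 2.4.6 and matplotlib 3.10.9 were used. Replicate numbers only name libraries.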

Additional observations from a re-analysis of the deposited data

Results flagged for a closer look

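The difference of the antibody effect (anti-Ox40 against control Ig) between bead doses passed the limma test in 7 cases. With high minus low beads the differences were -0.58 for S100a11, -0.58 for Anxa2, -0.38 for Anxa5, -0.35 for Anxa6 and -0.46 for Lgals1 on the log2(nRPKM + 1) scale. For high minus no beads they were -0.38 for S100a10 and -0.41 for Lgals1. Anxa5 and Lgals1 had positive estimates of the antibody effect at low beads (0.27 and 0.20) and negative ones at high beads (-0.11 and -0.26), and Anxa2 likewise (0.32 and -0.26). Groups of 3 libraries are too small for a test of single outlying libraries.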

How the results depend on the processing

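Over 120 results of members, of which 60 were called, 1980 alternative values were computed: 1763 kept their direction and their side of the threshold, 124 kept the direction but no longer passed, 35 newly passed in the same direction, 56 changed sign while passing under neither setting, and 2 changed sign while passing under the alternative. The 56 belong to 21 results whose own change was at most 0.25 in size, so no direction is read from these. The other 2 came under quantile normalization, where Anxa5 at high against no beads in control Ig was -0.17 (limma adjusted p 0.0081) and S100a10 at high against low beads in control Ig was -0.20 (0.0255). Why they changed sign was not tested. For anti-Ox40 against control Ig at high beads, 7 members were called, and 2 without the library of each group with most B cell transcripts (replicate 3 throughout) and 4 without the library with most myeloid transcripts. These fits keep 2 libraries a group. At low beads the count of 1 became 0 with only the groups compared and 0 without the B cell rich libraries. The count of 2 for the antibody effect at high minus no beads became 0 with no filter, 1 with no trend, 0 without the B cell rich and 0 without the myeloid rich libraries. The count of 5 at high minus low beads became 1 with no filter, 1 with only the groups compared, 3 with quantile normalization, 0 without the B cell rich and 0 without the myeloid rich libraries. At low minus no beads the count of 0 became 1 without the myeloid rich libraries. Calls over all genes moved as well across the alternatives. For the antibody they were 24 to 3522 at low and 1387 to 3404 at high beads (1254 and 3397 in the main fit). For the differences they were 1 to 1866 for low minus no beads (35 in the main fit) and 7 to 1743 for high minus no (1451). High minus low beads gave 3 to 1243 (414). Leaving out single libraries gave 0 to 0 members for the antibody without beads, 0 to 2 at low and 5 to 7 at the high dose, 0 to 1, 0 to 4 and 1 to 6 for the differences low minus no, high minus no and high minus low beads, and 6 to 8, 6 to 8 and 4 to 6 in control Ig and 7 to 9, 9 to 9 and 8 to 8 under anti-Ox40 for low against no, high against no and high against low beads. A left-out library was assumed to vary like the others. For other genes named, Ahnak at high beads with anti-Ox40 kept its call in 4 of 15 alternatives, S100a13 in 8 and Anxa3 in 9, and Tagln2 at low beads in 7. No paired analysis was possible because the labels give no number, mouse or batch shared between groups, and the numbers used here follow accession order. Depth limits Anxa1 at high beads, where 1 nRPKM over 1 kb stood for 32.8 to 43.8 reads.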

Other observations

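Among the myeloid genes, Cd14 was 0.0403 ± 0.00603 nRPKM with anti-Ox40 and 0.393 ± 0.534 with control Ig at high beads (SD, n = 3 each), and the control Ig value came mostly from 1 library, at 1.00 nRPKM, which also had 1.57 nRPKM of the neutrophil gene S100a9, listed at 0 in the other 5 high bead libraries. The lung epithelial gene Scgb1a1 was listed at 0 without beads under both antibodies, and reached 71.8 ± 66.1 nRPKM with anti-Ox40 and 11.5 ± 10.0 with control Ig at low beads.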
